A study of Mus musculus with 5 samples.

Results

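Natural killer (NK) cells of mouse mammary tumours were picked out of single-cell libraries by their own transcripts, and 217 of the 24022 deposited barcodes were taken as NK cells. A barcode was taken where it held at least 1500 unique molecular identifiers (UMIs, the count of distinct RNA molecules caught) and less than 0.3% of them from the epithelial genes Krt8, Krt18, Krt19 and Epcam. It also held at least 3 UMIs of the NK receptor genes Ncr1, Klre1 and Klrb1c together, none of the T cell gene Cd3e, none of the B cell gene Cd79a and at most 2 of the macrophage genes C1qa, C1qb and C1qc. The tumours grew from SSM2, a mouse mammary tumour cell line, after 100000 cells had been injected into a mammary gland on the left side of mice aged 10 to 12 weeks. Each mouse carried a pellet under the skin of the neck (60 mg, made to release over 60 days) with progesterone or with placebo, and tumours were collected 28 to 62 days later. The 2 placebo and 3 progesterone libraries fell into 2 batches named in the sample titles: Placebo 1 and Progesterone 1 in batch 1, and Placebo 2, Progesterone 2 and Progesterone 3 in batch 2. The labels give no strain of the host mice and do not tie each library to an animal of its own. The file names of Progesterone 2 and Progesterone 3 carry the same identifier with a different letter. Tumours were dissociated whole and the cells were not described as sorted.

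NK cells are innate lymphocytes that kill stressed, infected or transformed cells without a rearranged antigen receptor. They weigh signals from activating receptors against those from inhibitory receptors that read MHC class I, release granules of perforin and granzymes, and secrete interferon gamma and chemokines. They depend on interleukin-15 and on the transcription factors Eomes and T-bet, and as they mature in mice they lose Cd27 and Kit and gain Itgam (CD11b), S1pr5 and Klrg1. In tumours they can draw in dendritic cells and T cells through chemokines such as Ccl5, Xcl1, Ccl3 and Ccl4.

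NK cells made up a larger share of the immune barcodes in Progesterone 1 than in Placebo 1, and they were all but missing from the progesterone libraries of batch 2. Immune barcodes were those under the epithelial limit with a UMI of Ptprc, the pan-leukocyte gene, or of Cd3e. Placebo 1 held 91 NK cells among 4607 immune barcodes, or 1.98% (exact binomial 95% interval 1.59 to 2.42). Progesterone 1 held 112 among 1433, or 7.82% (6.48 to 9.33). Placebo 2 held 13 among 877 (1.48%, 0.792 to 2.52), Progesterone 2 held 0 among 1181, which allows a share of up to 0.254%, and Progesterone 3 held 1 among 836 (0.12%, 0.00303 to 0.665). The shares of the 2 placebo libraries had overlapping intervals, while the progesterone libraries lay above them in batch 1 and below them in batch 2.

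**Figure D1:**
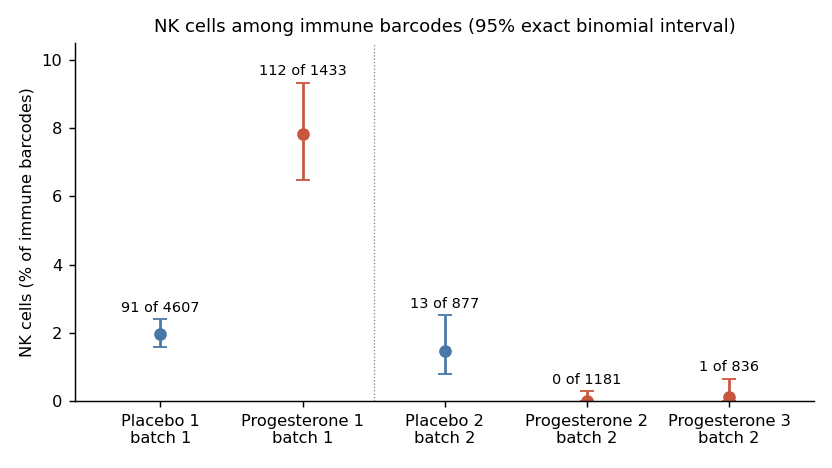
NK cells as a percentage of immune barcodes (y axis) in each of the 5 libraries (x axis), with points at the share, bars for the exact binomial 95% interval and the counts above them. Progesterone 1 stands at 7.82% and the other libraries lie between 0 and 1.98%.

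Within batch 1 the share of immune barcodes was 3.96-fold higher with progesterone (95% interval for counting error 3.02 to 5.18), and the share of all barcodes with at least 1500 UMIs was 3.13-fold higher (2.38 to 4.1). There was 1 library per treatment in that batch, so the difference has no replicate check. Over both batches, an exact two-sided permutation of treatments within batches gave a mean log2 difference of -1.08 for the share of immune barcodes (p = 0.667, 6 arrangements, smallest possible p 0.167, adjusted p of 1 over 3 denominators), and 1 of the 3 progesterone libraries was higher than the placebo library of its batch. The permutation took Progesterone 2 and Progesterone 3 as separate units, and the labels do not show that they came from separate animals. Set against T cells (barcodes with Cd3e), NK cells numbered 2.38 per 100 T cells in Placebo 1 and 29.7 in Progesterone 1 of batch 1. The batch 2 values were 11.6 for placebo and 0 and 2 for progesterone. With T cells as the denominator, the mean log2 difference within batches was 0.58, the opposite sign to the -1.08 for immune barcodes. T cells made up 83.1% of the immune barcodes of Placebo 1 and 26.3% of those of Progesterone 1, and the naive T cell gene Lef1 stood at 2576 and 1036 CPM in those T cells, where CPM is the UMIs of a gene scaled to a fixed total of UMIs. Whether the mix of T cells took part in the difference in NK share was not tested.

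The whole libraries held 43194597 and 23409215 UMIs in batch 1 and 182845008 to 204786073 in batch 2. The NK cells themselves had a median of 15157 UMIs in Placebo 1 (range 3659 to 55171), 11630 in Progesterone 1 (2509 to 100062) and 7053 in Placebo 2 (5263 to 12763). Of 23956 barcode sequences, 65 occurred in more than 1 library, and no barcode was an NK cell in 2 libraries. The single barcode of Progesterone 3 met the rule through 3 UMIs of Klrb1c and had none of Ncr1, Klre1, Gzma or Eomes, but 141 UMIs of Cd74 and 64 of H2-Aa, genes of antigen-presenting cells. It went against its label and was left out of the gene levels, which are given for the 3 libraries with at least 10 NK cells.

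Most of the other barcodes held several NK genes. Of the 4 genes that mark the class, Ncr1 (the receptor NKp46) had a UMI in 72 of 91, 93 of 112 and 13 of 13 NK cells of Placebo 1, Progesterone 1 and Placebo 2, and Klre1, a lectin-like receptor, in 88, 108 and 12. These 2 genes were part of the rule. Eomes, which the rule did not use, had a UMI in 81, 94 and 11 NK cells, and Gzma, the gene of granzyme A, in 65, 92 and 9. With every cell thinned to 1500 UMIs, Gzma was seen in 53.8% of the NK cells of Placebo 1 and 67.9% of those of Progesterone 1 (71.4% and 82.1% at full depth), against 0 of 138 B cells, which allows up to 2.17%, and 1 of 194. All 4 genes were found together in 48, 69 and 9 NK cells, and 1, 5 and 1 held a single one of them. Just outside the rule, barcodes with 2 UMIs of the receptor genes numbered 8 in Placebo 1 and 4 in Progesterone 1, where Gzma stood at 4090 and 160 CPM. Just inside it, those with 3 UMIs numbered 7 and 7, where Gzma stood at 1464 and 717 CPM.

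Markers of other lineages were counted in the same cells. The dendritic set (Flt3, Xcr1, Siglech and H2-Aa) had 3 UMIs in 3 of 91 NK cells of Placebo 1, 162 UMIs in 34 of 112 of Progesterone 1 and 1 UMI in 1 of 13 of Placebo 2, with Flt3 and Xcr1 at 0 in all of them. Of the 162 UMIs of Progesterone 1, 117 lay in 1 cell. The neutrophil set (S100a8, S100a9 and Csf3r) had 17 UMIs in 10 of 91, 105 in 55 of 112 and 0 in 13. NK cells with 3 or more UMIs of the T cell set (Cd3d, Cd3g, Cd8a, Cd4 and Bcl11b) numbered 4 of 91 in Placebo 1, 3 of 112 in Progesterone 1 and 2 of 13 in Placebo 2. Il1rl1, which marks type 2 innate lymphoid cells, had 1, 2 and 0 UMIs in all. The type 1 innate lymphoid cell set (Itga1, Tnfsf10 and Cxcr6) reached 3 UMIs in 30 of 91, 29 of 112 and 2 of 13. The epithelial set of the rule reached 3 UMIs in 3 of 91, 2 of 112 and 10 of 13 NK cells, so tumour RNA was seen most often in Placebo 2, where B cells held 879 CPM of it against 657 CPM in NK cells.

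The levels of genes were then compared between Progesterone 1 and Placebo 1 as CPM of the UMIs summed over the NK cells of a library, with intervals that cover counting error only. With 1 library per treatment there is no test, so a gene is described as past 2-fold where the ratio was at least 2 either way and the 2 libraries together held at least 20 UMIs. Of 8752 genes outside the rule, 783 (8.95%) passed, 513 higher (5.86%) and 270 lower (3.09%) in Progesterone 1, and the median log2 ratio of all 8752 was 0.04. With every NK cell given the same weight the split was 577 higher and 480 lower, a setting added after the data were seen. Among the lists of NK cell genes the highest shares were 6 of the 11 measured genes of mature NK cells and 4 of 6 chemokine ligand genes, each of them higher in Progesterone 1. Placebo 2, which took no part in this count, is given as the third value for most genes. Of the 513 genes that were higher in Progesterone 1 than in Placebo 1, 420 also had a higher CPM there than in Placebo 2, with an interval clear of 1 for 59 and the opposite for 9. Of the 270 lower genes, 167 were also lower than in Placebo 2, with an interval clear of 1 for 47 and the opposite for 1. Both counts use again the Progesterone 1 values by which the genes were picked, so a shared direction was in part built in. A gene with no UMI in Placebo 2 was counted as higher in Progesterone 1. The same share over all 8752 genes was not taken, so these counts are no replicate check.

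**Figure D2:**
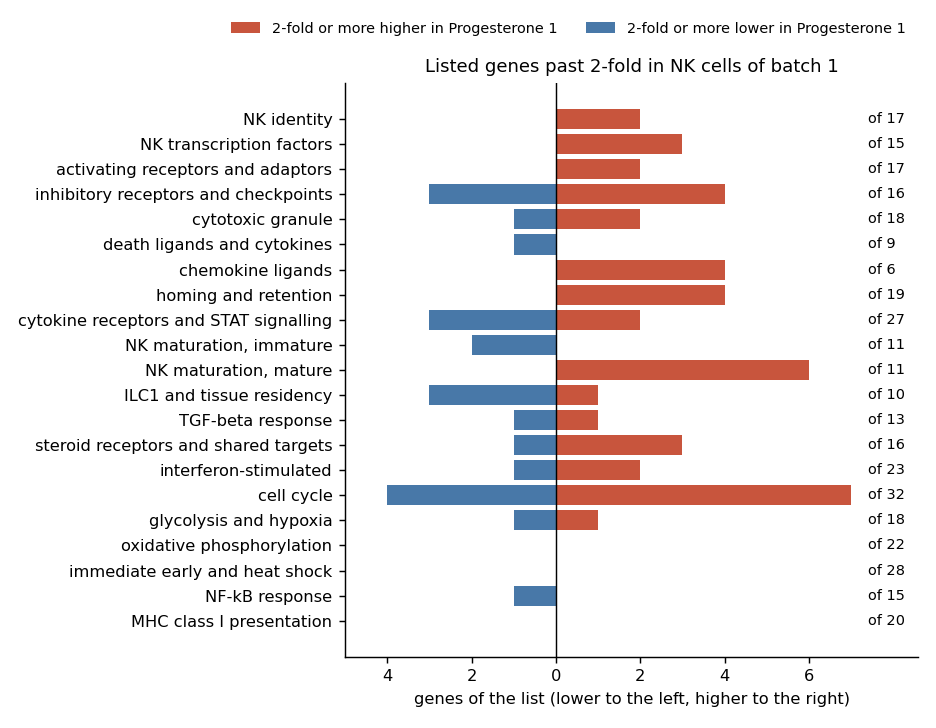
Number of genes of each list (y axis) that were 2-fold or more higher (right) or lower (left) in the NK cells of Progesterone 1 than in those of Placebo 1, with the number of genes measured at the right edge. The mature NK list has 6 of 11 genes higher and the chemokine ligand list 4 of 6, with none lower in either.

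The inflammatory chemokine ligand genes Ccl3 and Ccl4 were higher in Progesterone 1 than in either placebo library. They are neighbours on chromosome 11 (Ccl3 at 83647844 to 83649355 on the minus strand and Ccl4 at 83662584 to 83664683 on the plus strand, GRCm38). Ccl3 stood at 37.5 CPM in Placebo 1, 272 in Progesterone 1 and 0 in Placebo 2, and was 7.25-fold higher in Progesterone 1 than in Placebo 1 (5.53 to 9.66). Ccl4 stood at 149, 750 and 55.5 CPM and was 5.02-fold higher (4.37 to 5.80). The ratios were 8.88 and 6.04 with the single highest cell of each library left out. UMIs of Ccl4 were found in 26 of 91 NK cells of Placebo 1 and 65 of 112 of Progesterone 1, and after thinning to 1500 UMIs in 13.2% (7 to 21.9) and 34.8% (26.1 to 44.4). B cells, which show how much free RNA a droplet can hold, had 0.777 and 33.1 CPM of Ccl4 and 4.66 and 26.6 CPM of Ccl3 in the same 2 libraries.

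Ccl5, a chemokine that cytotoxic lymphocytes are known to secrete, stood at 1125 CPM in Placebo 1, 2457 in Progesterone 1 and 3255 in Placebo 2. It was 2.18-fold higher in Progesterone 1 than in Placebo 1 (2.06 to 2.31) but lower than in Placebo 2 (ratio 0.755, 0.677 to 0.844), so the 2 placebo libraries lay on either side of it. Xcl1, which attracts cross-presenting dendritic cells, stood at 1087, 982 and 1507 CPM. Cxcl2 was 6.84-fold higher (4.58 to 10.6) at 17.5, 120 and 18.5 CPM, but 26 of the 28 UMIs of Placebo 1 lay in 1 cell, and the ratio was 43.6 with the highest cell of each library left out. B cells of Progesterone 1 held 115 CPM of it, a level like that of the NK cells. Cxcl10 stood at 35, 22.6 and 27.7 CPM.

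**Figure D3:**
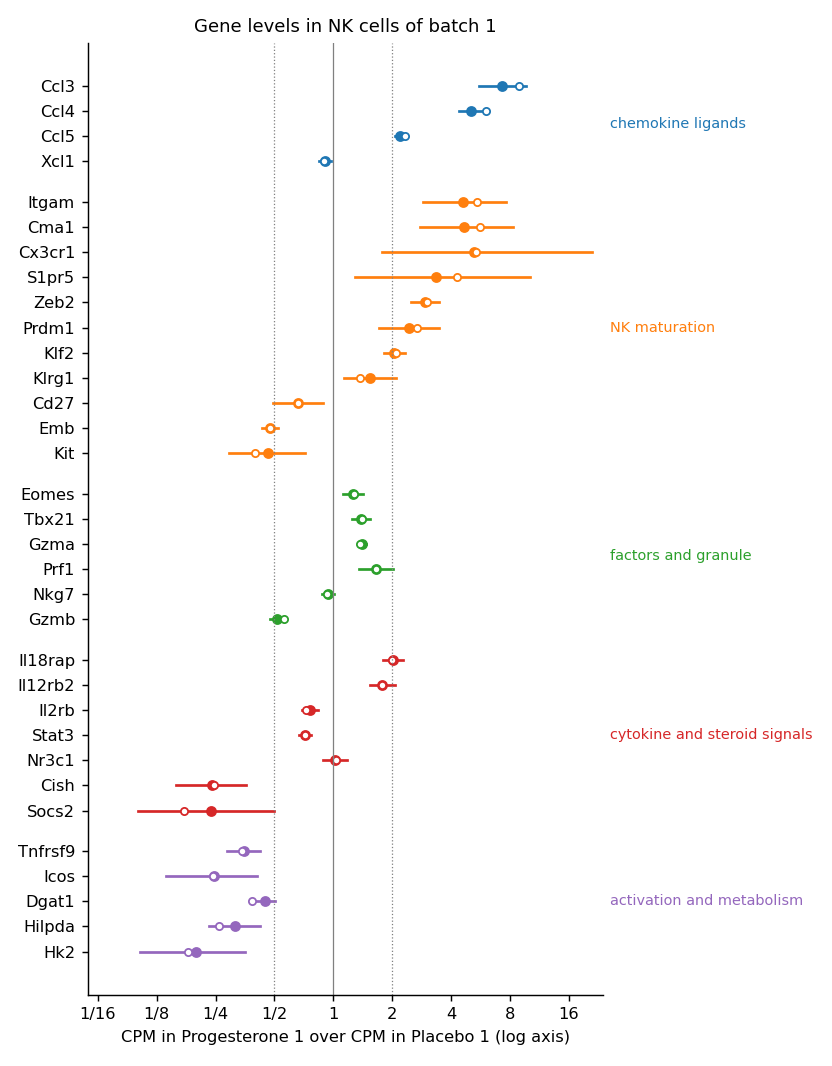
Ratio of CPM in the NK cells of Progesterone 1 to CPM in those of Placebo 1 (x axis, log scale) for genes of 5 groups (y axis). Filled points give the ratio, bars the 95% interval for counting error and open points the ratio without the highest cell of each library. Ccl3 lies at 7.25, Itgam at 4.6, Gzma at 1.40, Gzmb at 0.52 and Cish at 0.24.

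Genes of mature NK cells were the second group that leaned one way, with a median log2 ratio of 1.28 over 11 genes. Itgam, the integrin chain CD11b (chromosome 7, 128062640 to 128118491), stood at 13.8 CPM in Placebo 1, 63.3 in Progesterone 1 and 9.25 in Placebo 2, a 4.6-fold difference within batch 1 (2.88 to 7.67), with UMIs in 12 of 91 and 42 of 112 NK cells. B cells held 1.55 CPM of Itgam in Placebo 1 and 20.4 in Progesterone 1, and what part this had in the NK value was not tested. Cma1, a chymase gene known from mast cells and from mature NK cells, stood at 11.3, 52.6 and 0 CPM (4.68-fold, 2.79 to 8.27), and was at most 1.16 CPM in B cells. The genes of 2 receptors that guide mature NK cells in blood and out of tissue were sparse: Cx3cr1 had 4 UMIs in Placebo 1 and 21 in Progesterone 1 (5.26-fold, 1.77 to 21.1), and S1pr5 had 6 and 20 (3.34-fold, 1.29 to 10.2). Both had no UMI in Placebo 2.

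3 transcription factors of late NK maturation and tissue exit were higher in Progesterone 1 as well. Zeb2 stood at 124, 366 and 157 CPM in Placebo 1, Progesterone 1 and Placebo 2 (2.94-fold within batch 1, 2.50 to 3.47). Prdm1, the gene of Blimp-1, stood at 30, 72.7 and 0 CPM (2.42-fold, 1.72 to 3.47). Klf2, which drives genes for leaving tissue, stood at 258, 529 and 111 CPM (2.05-fold, 1.82 to 2.31, but 1.97-fold under TMM scaling and 1.51-fold with barcodes thinned before the rule). Progesterone 1 was the highest of the 3 libraries for each of these 3 genes. Zeb2 was also higher in other cells of Progesterone 1, at 97.9 CPM in the B cells of Placebo 1 and 292 in those of Progesterone 1, and whether this took part in the NK value was not tested. Klrg1 (45, 68.9 and 37 CPM), Ly6c2 (75, 131 and 83.2 CPM) and Spn (91.2, 120 and 120 CPM) stayed within 2-fold.

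Among 11 genes of immature NK cells, 2 were past 2-fold and both were lower in Progesterone 1. Kit, the stem cell factor receptor, stood at 41.9, 19.4 and 37 CPM (0.464 of Placebo 1, 0.293 to 0.72), and Emb, an adhesion molecule, at 837, 398 and 638 CPM (0.476, 0.432 to 0.524, but 0.538 without cells that held other lineages' markers). The receptor Cd27 stood at 75, 49.5 and 185 CPM (0.66, 0.49 to 0.884), and the list had a median log2 ratio of -0.18. Of 12 Itgam-bearing NK cells in Placebo 1, 3 also had a UMI of Cd27, and of 42 in Progesterone 1, 14 did. In the list on type 1 innate lymphoid cells and tissue residency, 1 of 10 genes was higher (Ahr, at 23.7, 65.1 and 18.5 CPM) and 3 were lower (Ckb, Tmem176a and Tmem176b, at 4.38 to 21.9 CPM in batch 1 and 9.25 to 139 CPM in Placebo 2). Itga1, the CD49a gene of tissue-resident cells, stood at 102, 126 and 27.7 CPM.

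Most core NK genes stayed within 2-fold in batch 1, as did most genes measured. Of 17 measured genes of NK identity, 15 stayed within 2-fold. The 2 past it are a share near the 8.95% of all genes measured that were past 2-fold. Eomes stood at 307, 386 and 277 CPM in Placebo 1, Progesterone 1 and Placebo 2 (ratio within batch 1 of 1.26, 1.12 to 1.42), and Tbx21, the gene of T-bet, at 366, 506 and 342 CPM (1.38, 1.24 to 1.54). The signalling adaptor genes Tyrobp (1123, 1109 and 1600 CPM) and Fcer1g (557, 519 and 1008 CPM) and the kinase gene Txk (965, 943 and 694 CPM) moved little within the batch. The 2 identity genes past 2-fold were sparse: Klrb1b had 7, 21 and 0 UMIs, and Khdc1a had 5, 45 and 2, in 2, 4 and 1 NK cells. Of 15 NK transcription factors, 3 were higher, the Zeb2, Prdm1 and Klf2 given above.

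Cytotoxic granule genes showed no common direction. Of 18 measured genes, 15 stayed within 2-fold and the median log2 ratio was 0.04. Over all genes measured, 8.95% were past 2-fold and the median was also 0.04. Gzma stood at 1909, 2664 and 1859 CPM (1.40 within batch 1, 1.33 to 1.46) and Prf1, the pore-forming perforin, at 99.4, 164 and 139 CPM (1.65, 1.35 to 2.02). Gzmb, the gene of granzyme B, went the other way at 1050, 543 and 416 CPM (0.517, 0.476 to 0.562), and the 2 placebo libraries lay far apart for it. It stayed within 2-fold in 11 of 15 alternative settings, with a lowest ratio of 0.428. Nkg7, a granule membrane protein gene, stood at 1023, 956 and 1248 CPM, and Srgn, the granule matrix proteoglycan, at 1451, 1387 and 1387 CPM. The granzyme inhibitor gene Serpinb9 stood at 316, 225 and 703 CPM.

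The 3 granule genes past 2-fold had most of their UMIs in few cells. Gzmc stood at 106, 513 and 0 CPM, with 577 of its 819 UMIs in 1 NK cell of Progesterone 1 and 121 of 170 in 1 of Placebo 1. Its ratio was 4.83 with these cells and 4.95 without the highest cell of each library. That same cell, the deepest of the library at 100062 UMIs, held 134 of the 143 UMIs of Gzmf. In Placebo 1, 1 NK cell held all 245 UMIs of Gzmd and 422 of the 1680 UMIs of Gzmb. These granzyme genes are close copies of one another, so reads may be split between them. The share of NK cells with a UMI of Gzmc was 15.4% in Placebo 1 and 8.04% in Progesterone 1 at full depth, and 4.4% (1.21 to 10.9) and 3.57% (0.982 to 8.89) after thinning to 1500 UMIs. With barcodes thinned before the rule, the ratio was 0.0796.

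Of 17 measured genes of activating receptors and adaptors, 2 were higher and none was lower, a share near the 8.95% of all genes measured. Cd226 (DNAM-1), which binds nectin-family ligands on tumour cells, stood at 45, 121 and 139 CPM (2.69-fold within batch 1, 2.04 to 3.57), with Placebo 2 above Progesterone 1. Klra8 (Ly49H) had 2, 19 and 0 UMIs. Klrk1, the gene of NKG2D, stood at 350, 436 and 564 CPM. Syk stood at 67.5, 132 and 83.2 CPM (1.95, 1.54 to 2.48).

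Inhibitory receptors and checkpoints split, with 4 of 16 measured genes higher and 3 lower. Klra3 (Ly49C) stood at 14.4, 36.3 and 27.7 CPM (2.53-fold, 1.53 to 4.29) and Entpd1, the CD39 ectoenzyme, at 31.9, 75.8 and 27.7 CPM (2.38-fold, 1.70 to 3.37), while Klrb1b and Ctla4 had 30 UMIs or fewer in each library. Klra5 was lower at 58.7, 18.8 and 240 CPM (3.13-fold, interval of the ratio 0.205 to 0.487), held by 9 and 8 NK cells of batch 1. Nt5e (CD73) stood at 65.6, 31.3 and 9.25 CPM. Pdcd1, the gene of PD-1, had no UMI in any NK cell of the 3 libraries, and Lag3 and Havcr2 had 7 or fewer. Klrd1 (418, 470 and 703 CPM) and Klrc1 (148, 158 and 157 CPM), which pair as CD94 and NKG2A, were level. Counting the 8 Ly49 genes Klra1 and Klra3 to Klra9, the median NK cell had UMIs of 2 in each library, and 10 of 91, 11 of 112 and 2 of 13 had none. The Ly49 genes are near-identical copies that differ between strains, so their single values are uncertain.

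A pair of feedback inhibitors of cytokine signalling, Cish and Socs2, were lower in Progesterone 1, while 2 others were not. Cish, which is induced through STAT5 and restrains interleukin-15 responses in NK cells (chromosome 9, 107296026 to 107302784), stood at 80.6 CPM in Placebo 1, 19.4 in Progesterone 1 and 83.2 in Placebo 2. Its ratio was 0.241 against Placebo 1 (0.157 to 0.359) and 0.233 against Placebo 2 (0.108 to 0.557), so both placebo libraries lay above the progesterone library. Socs2 stood at 23.7, 5.64 and 74 CPM (0.237 within batch 1), and Il15ra, which presents interleukin-15, at 16.9, 2.51 and 9.25 CPM. Socs1 (50.6, 55.1 and 92.5 CPM) and Socs3 (145, 117 and 194 CPM) were within 2-fold. Of 27 genes of cytokine receptors and STAT signalling, Cish, Socs2 and Il15ra were lower and 2 were higher: Il18rap, a chain of the interleukin-18 receptor, at 275, 555 and 296 CPM (2.02-fold, 1.80 to 2.27, and 1.99-fold without the highest cells), and Il10ra at 38.7, 78.3 and 18.5 CPM. Il2rb, the chain shared by the receptors for interleukin-2 and interleukin-15, stood at 672, 509 and 666 CPM (0.757, 0.69 to 0.83), and Il12rb2 at 178, 317 and 204 CPM (1.78, 1.54 to 2.06).

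The progesterone receptor gene was almost not seen in NK cells. Pgr had 3 UMIs in Placebo 1, 1 in Progesterone 1 and 0 in Placebo 2. The glucocorticoid receptor gene Nr3c1, which can also bind progesterone, stood at 246, 251 and 490 CPM. Of 16 genes on the list of steroid receptors and their common targets, 3 were higher and 1 was lower. The higher genes were Nr3c2 at 2.5, 45.7 and 27.7 CPM, Klf9 at 39.4, 97.1 and 18.5 CPM (2.47-fold, 1.83 to 3.36) and Mt1 at 5, 30.7 and 111 CPM. B cells of Progesterone 1 held 129 CPM of Nr3c2 and 51.3 CPM of Mt1, more than the NK cells. The other targets Fkbp5 (106, 73.3 and 102 CPM), Tsc22d3 (117, 129 and 268 CPM), Zbtb16 (60.6, 57.6 and 120 CPM) and Per1 (53.7, 73.3 and 0 CPM) stayed within 2-fold.

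The rule for genes beyond the lists, which took those with the interval farthest from 1, gave 10 each way, several with most of their UMIs in 1 cell. Siglech, Blnk, Carmil1, Mpeg1, Ccr9 and Cybb were higher in Progesterone 1 through a single barcode that met the NK rule, with 31868 UMIs. It held 113 of 114 Siglech UMIs and 51 UMIs of Cd74, together with 189 of Gzma and 9 of Ncr1. Arhgap6 had 25 of its 49 UMIs in 1 cell. Apoe, Cd74 and Fn1 were spread over 63, 65 and 27 of 112 NK cells and stood at 489, 7119 and 49 CPM in B cells of the same library, which express Cd74 themselves. What part free RNA had in their values was not tested. Among the 10 lower genes, Car10, Kazn and Sprr1a had 25 of 25, 48 of 52 and 73 of 74 of their Placebo 1 UMIs in 1 cell, and Fgf10 had 17 of 23. Ppargc1a, Phldb2, Krt83 and Nrp2 had 20 to 35 UMIs in Placebo 1 and 1 to 4 in Progesterone 1, and Sult2b1 had 78 and 13.

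A second rule was therefore chosen after the values were seen. It asked for at least 50 UMIs, a ratio still past 2-fold without the highest cell, UMIs in at least 20 NK cells of the higher library, and a CPM there at least 5 times the lower of the B and T cell values. It left 47 higher and 33 lower genes, and the genes described are taken from the 15 each way with the interval farthest from 1. The higher genes included, beside Ccl3, Ccl4, Cma1 and Itgam, Angpt1 (angiopoietin-1, a ligand of the vessel receptor Tie2) at 3.12, 53.2 and 0 CPM (17-fold, 7.02 to 53.8) with UMIs in 21 NK cells of Progesterone 1. Rap1gap2, an inhibitor of the small GTPase Rap1, stood at 18.7, 115 and 18.5 CPM (6.15-fold, 4.16 to 9.37). Klrc3 (NKG2E) stood at 15.6, 57.6 and 55.5 CPM, with Placebo 2 close to Progesterone 1. Gab3, a docking protein in interleukin-2 and interleukin-15 signalling, stood at 53.1, 172 and 74 CPM (3.23-fold, 2.52 to 4.17). Hist1h2ao (43.7, 229 and 27.7 CPM), Nos1ap (29.4, 108 and 46.2 CPM), Gfra2 (10.6, 41.3 and 18.5 CPM) and Hip1 (75, 207 and 92.5 CPM) were highest in Progesterone 1. There, 131 of the 365 UMIs of Hist1h2ao lay in 1 NK cell. T cells of Progesterone 1 also held more Hist1h2ao and Hip1 than those of Placebo 1, at 10.6 and 34.6 CPM and at 6.29 and 89.1 CPM in Placebo 1 and Progesterone 1. Agbl4 stood at 31.9, 120 and 111 CPM, level with Placebo 2. Park2 stood at 5.62, 26.3 and 111 CPM, and its ratio to Placebo 2 was 0.237 (0.123 to 0.495), the opposite direction.

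Among the lower genes, Tnfrsf9, the costimulatory receptor 4-1BB, stood at 251, 87.7 and 240 CPM in Placebo 1, Progesterone 1 and Placebo 2 (2.86-fold lower within batch 1, interval of the ratio 0.286 to 0.424), and was found in 69 of 91 and 44 of 112 NK cells. Icos, another costimulatory receptor, stood at 48.7, 11.9 and 64.7 CPM (4.1-fold lower). Dgat1, which makes triglycerides, stood at 516, 230 and 388 CPM (2.25-fold lower), and Hilpda, a lipid droplet protein that blocks their breakdown, at 122, 38.2 and 157 CPM (3.19-fold lower). For these 4 genes, and for Sult2b1 (48.7, 8.14 and 55.5 CPM), Atp10a (277, 112 and 287 CPM) and Sema6a (148, 60.1 and 305 CPM), Progesterone 1 lay below both placebo libraries. In the 15 and 30 NK cells left where barcodes were thinned before the rule, the ratio was 0.904 for Dgat1 and 0.955 for Sult2b1. B cells held 80.8 CPM of Dgat1 in Placebo 1 and 29.7 in Progesterone 1, and what part this had in the NK value was not tested. Hk2, the inducible hexokinase, was 5.06-fold lower than in Placebo 1 (44.4, 8.77 and 9.25 CPM), and Agap1 stood at 100, 26.9 and 18.5 CPM. The Placebo 2 values rest on 1 UMI of Hk2 and 2 of Agap1. The ratios to Placebo 2 were 0.948 (0.144 to 40.1) and 1.46 (0.379 to 12.4), too wide to tell which library was lower. Cish was given above, and Slco3a1 (86.2, 25.1 and 55.5 CPM), Sh3rf1 (224, 80.8 and 139 CPM) and Ece1 (129, 51.4 and 74 CPM) were lowest in Progesterone 1, with intervals against Placebo 2 that included 1.

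Several other lists are set beside all genes measured, of which 8.95% were past 2-fold. None of 22 genes of oxidative phosphorylation, 20 of MHC class I presentation and 28 immediate early and heat shock genes was past 2-fold, with median log2 ratios of -0.24, -0.17 and 0.36. Fos stood at 488, 920 and 222 CPM and Jun at 559, 995 and 176 CPM, both highest in Progesterone 1. Of 23 interferon-stimulated genes 2 were higher and 1 lower, of 13 genes of the response to TGF-beta 1 was higher and 1 lower, of 18 of glycolysis and hypoxia 1 was higher and 1 lower, and of 15 of the NF-kB response 1 was lower. Of 9 measured death ligands and cytokines 1 was lower, Tnfsf14. On the interferon, TGF-beta, glycolysis and death ligand lists, the share past 2-fold was not below that of all genes measured. Interferon gamma, Ifng, stood at 126, 131 and 64.7 CPM, the death ligand gene Fasl at 83.1, 142 and 148 CPM, and Tgfb1 at 715, 772 and 453 CPM. Homing and retention had a larger share, with 4 of 19 genes higher, Itgam, Cx3cr1, S1pr5 and Klf2. Of these, Itgam, Cx3cr1 and S1pr5 are also on the list of mature NK cells. The inflammatory receptor gene Ccr2 stood at 112, 199 and 46.2 CPM.

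Cell cycle genes went both ways, with 7 of 32 higher and 4 lower. Mki67 stood at 60, 58.2 and 0 CPM and Top2a at 83.7, 140 and 0 CPM. NK cells with at least 3 UMIs of the mitotic genes Mki67, Top2a, Birc5 and Cdk1 numbered 13 of 91 in Placebo 1 (14.3%, 7.83 to 23.2), 14 of 112 in Progesterone 1 (12.5%, 7.01 to 20.1) and 0 of 13 in Placebo 2. They were deeper than the rest, with a median of 28520 against 14360 UMIs in Placebo 1 and 22180 against 10860 in Progesterone 1. In both libraries of batch 1 they had less Ccl4 than the other NK cells, at 15.5 against 192 CPM and 112 against 959 CPM.

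Genes of macrophages, dendritic cells and neutrophils were higher in the NK cells of Progesterone 1, at low levels. Past 2-fold were 3 of 6 measured macrophage and monocyte genes (Apoe, Cd68 and Cd14), 5 of 7 dendritic genes (H2-Aa, H2-Ab1, H2-Eb1, Cd74 and Siglech) and 3 of 3 neutrophil genes (S100a8, S100a9 and Il1b), with none lower. Their summed levels in Placebo 1, Progesterone 1 and Placebo 2 were 240, 515 and 148 CPM for 15 macrophage and monocyte genes, 120, 370 and 120 CPM for 11 dendritic genes and 17.5, 83.9 and 0 CPM for 8 neutrophil genes. Within the dendritic genes of Progesterone 1, 113 of the 114 Siglech UMIs lay in 1 cell. B cells of the 2 libraries of batch 1 moved the same way for S100a9, from 5.44 to 300 CPM, and for Apoe, from 137 to 489 CPM. Among the B cell, T cell, innate lymphoid, endothelial, erythroid, epithelial, fibroblast and mast cell lists, 5 or fewer genes each could be measured, and those past 2-fold were Fn1 and Cma1 (higher) and Kit and Calca (lower). What part such RNA had in the results was not tested.

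A fit over the 3 libraries with enough NK cells was possible only without batch, since a batch term left 0 residual degrees of freedom. edgeR's quasi-likelihood test with Benjamini-Hochberg adjustment, with Placebo 1 and Placebo 2 against Progesterone 1 and 1 residual degree of freedom, called 24 of 9227 genes (0.26%), 19 of them higher with progesterone. The lone progesterone library was assumed to vary like the placebo libraries, and what batch and what treatment added to a difference cannot be told apart. Among the called genes were Ccl3 (log2 difference 3.12, adjusted p = 9.08e-07), Ccl4 (2.64, 7.82e-06), Angpt1 (4.15, 0.00495) and Rap1gap2 (2.6, 0.00113), each higher in the progesterone library than in both placebo libraries. Siglech, Blnk, Mpeg1, Ccr9, Cybb, Arhgap6, Gzmc and Gzmf, whose UMIs lay mostly in single cells, were called too, as were Apoe, Cd74 and Cxcl2, which B cells held at a like or higher level. The called lower genes included Klra5 (log2 difference -2.63) and Sprr1a (-3.99), the latter with most Placebo 1 UMIs in 1 cell. Cish (-2.07), Tnfrsf9 (-1.5) and Icos (-2.16), given above as lower, were not called. DESeq2 called 0 genes at the same threshold of 0.05 (lowest adjusted p 0.583), with 50 genes at an unadjusted p below it against 324 by edgeR.

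CD8 T cells picked by a rule, and named effector CD8 T cells after it, were set beside the NK cells in batch 1. They were barcodes with Cd3e, at least 2 UMIs of Cd8a and Cd8b1, at least 3 of Ccl5 and Nkg7 and none of Ncr1, and numbered 139 in Placebo 1 and 39 in Progesterone 1. Both classes were chosen by transcripts, so the values are a description. Few of these CD8 T cells held effector genes outside the rule. In Placebo 1 at full depth, Gzma had a UMI in 3.6% of them, Gzmb in 5.76% and Ifng in 13.7%. The name is that of the rule and does not mean that most were cytotoxic. Gzma was high in NK cells (1909 and 2664 CPM) and nearly absent in CD8 effector cells (6.45 and 16.2 CPM). Irf8 (941 and 731 against 25.2 and 30.3 CPM) and Itga2 (92.5 and 165 against 1.17 and 0 CPM) were likewise far higher in NK cells. Ccl4 was higher in Progesterone 1 in both classes, in CD8 effector cells at 48.1 and 180 CPM, and Ccl3 stood at 7.62 and 18.2 CPM there. Ccl5, which helped choose the CD8 effector cells, stood at 676 and 2444 CPM in them. Xcl1 stood at 94.4 and 705 CPM there, with 230 of the 349 UMIs of Progesterone 1 and 66 of the 161 of Placebo 1 in 1 cell. Itgam and Angpt1 had no UMI in CD8 effector cells of either library. Hist1h2ao and Hip1 were higher in the CD8 effector cells of Progesterone 1 too, at 10.6 and 135 CPM and at 21.1 and 131 CPM. Nos1ap stood at 2.35 and 0 CPM there, and Gfra2 had no UMI. Cish and Tnfrsf9 were not lower in the CD8 effector cells of Progesterone 1, at 25.2 and 50.5 CPM and at 29.3 and 66.7 CPM.

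**Figure D4:**
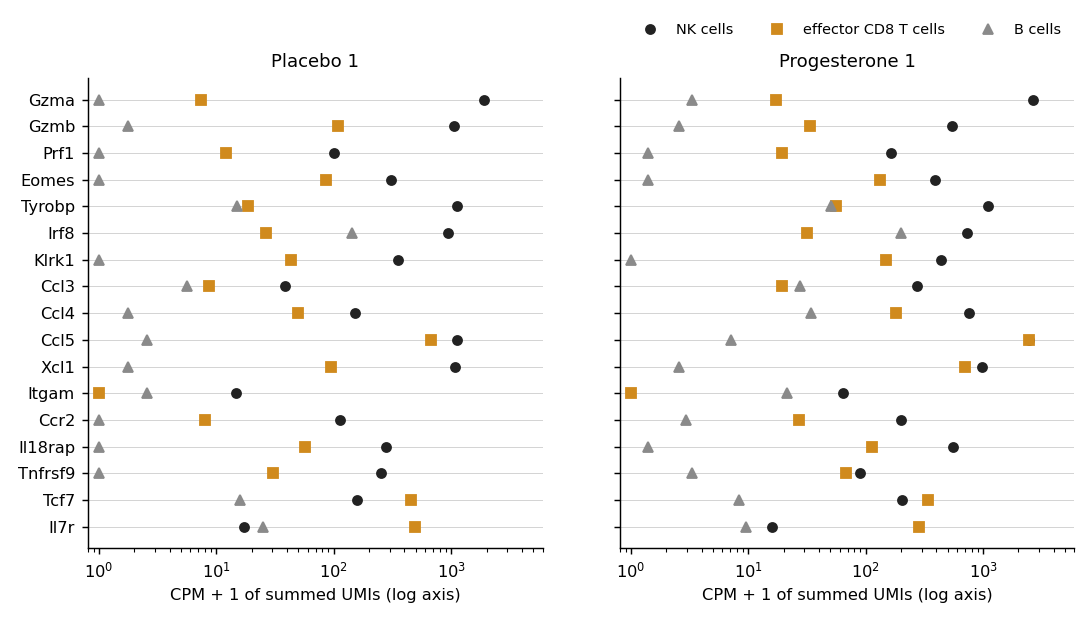
CPM plus 1 of summed UMIs (x axis, log scale) of 17 genes (y axis) in NK cells, effector CD8 T cells and B cells of Placebo 1 (left) and Progesterone 1 (right). Gzma is higher in NK cells (1909 and 2664 CPM) than in the CD8 T cells picked by the rule (6.45 and 16.2 CPM) in both libraries. Ccl3 and Ccl4 are higher in the NK cells of Progesterone 1.

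NK cells of the same library varied widely among themselves. The CPM of Gzma in single NK cells of Placebo 1 ran from 0 in 26 of 91 cells through a median of 1043 to 11510, and in Progesterone 1 from 0 in 20 of 112 cells through 2016 to 23220. Ccl4 had a median of 0 in Placebo 1 and 83.7 in Progesterone 1, with highest cells at 2573 and 11920 CPM. The 2 chemokines kept company: of the 15 NK cells with Ccl3 in Placebo 1, 10 also had Ccl4, against 16 of the other 76, and in Progesterone 1 it was 45 of 58 against 20 of 54. Cells with Gzma more often had Gzmb, in 57 of 65 against 11 of 26 in Placebo 1 and in 62 of 92 against 3 of 20 in Progesterone 1. These pairs are descriptions of cells that share a library, at each cell's own depth.

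**Figure D5:**
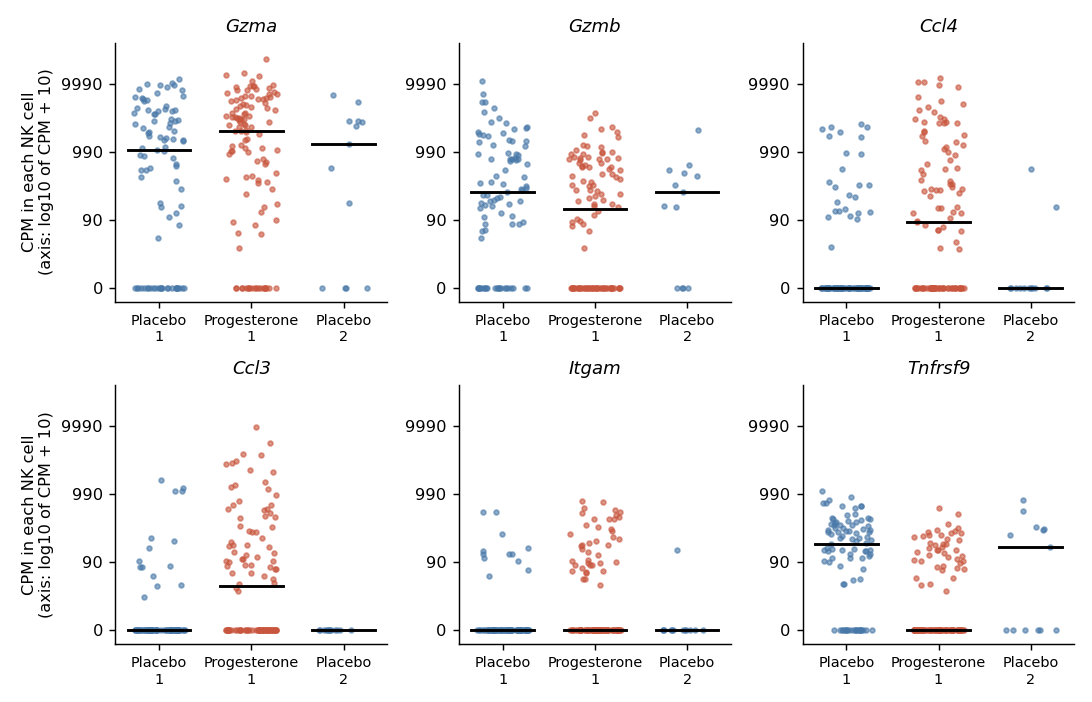
CPM of 6 genes in single NK cells (y axis, spaced by log10 of CPM plus 10) of Placebo 1, Progesterone 1 and Placebo 2, with 1 point per cell and a line at the median. For Ccl4 the median line lies at 0 in Placebo 1 and at 83.7 CPM in Progesterone 1, while Gzma spans 0 to 11510 CPM in Placebo 1 and 0 to 23220 CPM in Progesterone 1.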

How the data were processed

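Single-cell 3' libraries (10x Genomics) were made from dissociated tumours, per the labels' protocols. The deposited values are raw UMI counts per gene and barcode, as filtered matrices from Cell Ranger, which is version 8.0.1 per the file headers and 7.0.0 with the build mm10 per the submitters' processing notes. The counts cover 24860 gene symbols. NK cells, T cells, B cells and effector CD8 T cells were chosen by UMI rules with no clustering. The members, the 32 gene lists and the comparisons were chosen with earlier results of these data known. Beyond listed genes, the text names the 10 genes each way whose interval lies farthest from a ratio of 1 (at least 20 UMIs, 2-fold), and genes called by edgeR. The rule on genes spread over many cells was added after values were seen. Some genes that met these rules are not reported here.

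UMIs were summed per library and class and scaled to CPM. Ratios carry exact conditional 95% intervals and shares exact binomial (Clopper-Pearson) ones, and both, like the limit of 3 counts for a share of 0, cover counting error only. Batch 1 has 1 library per treatment and so no test. P-values over libraries measure the spread between libraries, which may be technical. Tools were Python with numpy 2.4.6, scipy 1.17.1 and scanpy 1.11.5, and R 4.3.3 with edgeR 4.0.16 (quasi-likelihood, Benjamini-Hochberg threshold 0.05) and DESeq2 1.42.0. The test across genes and the ratio were tested on simulated data. Scrublet, as run in scanpy, marked 1.83% to 5.45% of the barcodes of a library as doublets, among them 1, 2 and 0 NK cells of Placebo 1, Progesterone 1 and Placebo 2, which were kept. Alternatives were the thresholds of the rule, depth, scaling, filters, leaving out libraries and leaving out cells.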

Additional observations from a re-analysis of the deposited data

Results flagged for a closer look

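The difference in the share of NK cells among immune barcodes had opposite signs in the 2 batches. The log2 difference of progesterone against placebo, with 0.5 added to each count, was 1.98 in batch 1 (1 library per treatment) and -4.14 in batch 2 (the mean of 2 progesterone libraries against 1 placebo library). Every progesterone library of a batch lay on the same side of its placebo library. The difference between the batches was not tested.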

How the results depend on the processing

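Thinning barcodes to 1500 UMIs before the rule left 15 and 30 NK cells in batch 1 and gave log2 ratios of 2.84 for the share of immune barcodes, 2.35 for the share of barcodes and 4.20 per T cell, in the same direction as the 1.98, 1.64 and 3.64 at full depth. It reversed Gzmc to a ratio of 0.0796, and took Dgat1 to 0.904, Sult2b1 to 0.955 and Klf2 to 1.51. The number of genes past 2-fold was 1291 with a minimum of 10 UMIs and 333 with a minimum of 50, against 783 at 20. edgeR called 11 genes with no filter on low counts and DESeq2 called 0, against 24. Leaving out 1 library at a time, the mean log2 difference in NK share ran from -4.14 to 1.98, and it was 1.98, the reverse of -1.08, without Placebo 2. With no replicate block, that is with treatments permuted over all 5 libraries and not within batches, it was -2.16 (exact permutation p = 0.5). edgeR with batch as the replicate block could not be fitted, since it left 0 residual degrees of freedom, and leave-one-out of that fit was not run for the same reason. For single genes, each gene under each alternative was counted as 1 value. By that count 13 values dropped below 2-fold, among them Ccl5 at 1.68 and Emb at 0.524 with equal weight per cell, and 4 passed it. Gzmb stayed within 2-fold in 11 of 15 alternatives, with a lowest ratio of 0.428. Ccl3, Ccl4, Itgam, Zeb2, Cish and Tnfrsf9 stayed past 2-fold in every alternative run. The 13 NK cells of Placebo 2 hold 108134 UMIs, so 1 UMI there is worth 9.25 CPM, and a gene with no UMI in Placebo 2 can be present below that level.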
